A study of Mus musculus with 12 samples.

Results

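The miRNAs examined here come from the Dlk1-Meg3 imprinted cluster on mouse chromosome 12. Members were chosen by name: an assay belonged to the cluster when its miRNA name, without species prefix and arm, was one of 50 listed hairpins, and starred strands (names ending in #) were kept apart. By this rule 78 of the 750 miRNA assays of the panel were members, and they covered 49 hairpins, since miR-341 had no assay under that name. RNA came from pancreatic islets, the clusters of hormone-secreting cells that include the insulin-producing beta cells, of male C57BL/6 mice aged 2 to 3 months. Dams of the LP0.5 group (6 samples) received a low-protein diet during the whole of pregnancy, and dams of the Control group (6 samples) a control diet; the labels name no other difference, and they do not say whether a sample held islets of 1 animal or of several. The islets were hand-picked after collagenase digestion and kept overnight in culture medium before RNA was taken, so every value describes cultured islets. Small RNAs were measured by TaqMan RT-PCR, in which each assay amplifies 1 mature miRNA.

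The authors' deposited table holds 1 linear ratio for each assay, headed low-protein against control, and no value per sample. A ratio of 1 means equal levels, and by that heading a ratio above 1 marks more of the miRNA in islets of the LP0.5 group. No ratio below therefore has a replicate error or a p-value, and "above" and "below" describe the listed ratio only. The direction rests on the heading: miR-199a-3p, which the study is known for naming as raised, has a ratio of 0.422 per the authors' deposited table, which by the heading is a lower level in the LP0.5 group. In whole islets fewer cells of a type and less RNA per cell cannot be told apart. Where a limit was needed, a ratio of at least 1.5 or of at most 0.667 was used, that is 1.5-fold from 1.

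The cluster is transcribed from the maternal chromosome as a string of noncoding RNAs, among them Meg3, the antisense transcript of Rtl1, Rian and Mirg, while the protein-coding genes Dlk1 and Rtl1 are active on the paternal chromosome. Drosha and Dicer cut the hairpins out of these long RNAs, and either arm (5p or 3p) of a hairpin can become a mature miRNA that silences messenger RNAs through its seed, bases 2 to 8. The locus is strongly expressed in neurons and in beta cells, and its miRNAs have been described as lower in islets of people with type 2 diabetes. Deletion of the stretch from miR-379 to miR-410 in mice disturbs the adaptation of liver metabolism after birth. In the RefSeq gene order of GRCm38.p6, used here for names and order alone, 9 listed hairpins lie before miR-379 without being antisense to Rtl1, 6 are antisense to Rtl1, and 35 run from miR-379 to miR-410. The same gene order places 1 hairpin (miR-770) inside Meg3, 3 (miR-341, miR-1188 and miR-370) inside Rian and 8 inside Mirg.

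RefSeq (GRCm38.p6) holds 95 mature sequences for the 50 hairpins, and 24 of the 78 assays have a name that matches one of them. The remaining assay names either leave the arm out or have no matching entry, so a sequence was tied to an assay only where the names match. The mature miRNAs below are those whose matched assay was at least 1.5-fold from 1, each followed, where it was assayed too, by the opposite arm of its hairpin; capitals mark the seed, and all sequences read 5′ to 3′. Assays named for human or rat are shown by the mouse sequence of the same name.
miR-770-5p: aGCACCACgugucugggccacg
miR-770-3p: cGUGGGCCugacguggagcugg
miR-432: uCUUGGAGuagaucagugggcag
miR-380-3p: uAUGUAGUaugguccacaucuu
miR-380-5p: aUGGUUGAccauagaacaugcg
miR-493-3p: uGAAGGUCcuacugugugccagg
miR-409-5p: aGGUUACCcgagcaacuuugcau
miR-409-3p: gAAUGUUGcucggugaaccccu

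Part of the cluster is known as a family grown by duplication. Letters shared among the products of the whole cluster are set out here, and how they arose was not tested. Of the 95 mature sequences, 12 share a seed with a second member, in 6 pairs, and the 95 hold 89 distinct seeds. Arms without an entry there, such as miR-485-5p, are not in these counts, so further pairs may be missed. The pairs are shown because miRNAs with 1 seed can bind the same seed matches; capitals again mark the seed.
miR-379-5p: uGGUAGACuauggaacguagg
miR-1193-5p: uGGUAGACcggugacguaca
miR-379-3p: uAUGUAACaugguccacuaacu
miR-411-3p: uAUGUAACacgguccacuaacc
miR-758-5p: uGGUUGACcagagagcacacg
miR-1197-5p: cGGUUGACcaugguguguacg
miR-494-5p: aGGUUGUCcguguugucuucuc
miR-410-5p: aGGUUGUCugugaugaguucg
miR-376b-5p: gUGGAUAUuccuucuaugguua
miR-376c-5p: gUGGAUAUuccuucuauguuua
miR-370-5p: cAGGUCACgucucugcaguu
miR-1193-3p: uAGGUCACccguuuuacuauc

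No panel assay names an arm of any of these 12, so no ratio was assigned to a seed pair. Starred assays, whose names mark the minor strand of a hairpin but not the arm, exist for miR-379, miR-411, miR-376b and miR-376c. Their ratios were 0.958, 1.13, 0.688 and 0.00663 per the authors' deposited table, and they were not tied to a sequence. The unstarred assays of the hairpins behind these 12, none of which names an arm, can only be set side by side. Per the authors' deposited table, the ratios were 0.982 for miR-379, 0.845 for miR-411, 1.32 for miR-1193, 0.972 for miR-1197, 1.01 for miR-410, 0.844 for miR-376b and 0.841 for miR-376c. In that table miR-758 had 3.40 by its human assay and no ratio by its mouse assay, miR-494 had 0.815 by its mouse and 1.23 by its human assay, and miR-370 had 5.06 by its mouse and 0.951 by its human assay. Letters are also shared beyond the seed. The run GGUUGACC stands in 5 member sequences (miR-380-5p, miR-1197-5p, miR-758-5p, miR-134-5p and miR-154-3p), and the run UGGUCCAC in 4 (miR-379-3p, miR-380-3p, miR-758-3p and miR-412-3p). Among all 1679 mouse mature names in the RefSeq table these runs were found in 5 (0.298%) and 4 (0.238%), so each carrier belongs to the cluster; both runs were chosen after the sequences were seen, and were searched on the mature strand only.

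Most cluster miRNAs were listed near 1. Of the 78 assays, 72 (92.3%) had a ratio, against 566 of 750 (75.5%) on the whole panel, and 48 of the 49 hairpins had at least 1. The median ratio of the 72 was 1.02, the 25th percentile 0.838 and the 75th 1.23, beside 1.01, 0.792 and 1.27 for all miRNA assays. There were 39 assays above 1 and 33 below, beside 288 and 278 on the panel. At least 1.5-fold above 1 were 11 assays (15.3%), where the panel had 18.6%, and at least 1.5-fold below 1 were 6 (8.33%), where the panel had 16.8%. The share of members above the limit is thus close to that of the panel, and the share below it is smaller, which was not tested because 1 ratio per assay has no replicates. The remaining 55 assays (76.4%) lay between the limits, against 366 (64.7%) on the panel. With a limit of 2-fold the members past it were 8 (11.1%) above and 2 (2.78%) below, beside 12.4% and 11.8% of the panel.

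**Figure D1:**
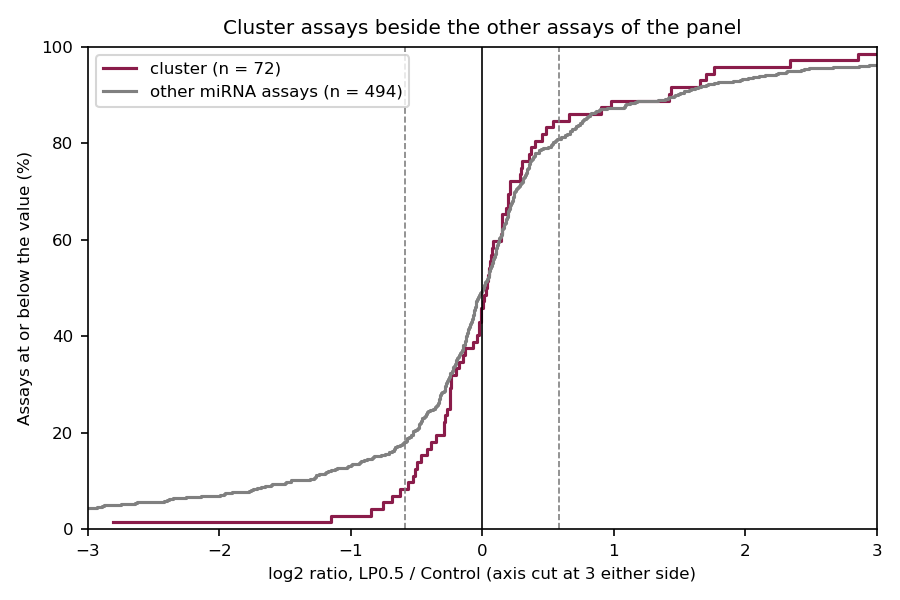
Cumulative share of assays (vertical axis, percent) at or below each log2 ratio (horizontal axis) for the 72 cluster assays and the 494 other miRNA assays with a ratio; dashed lines mark 1.5-fold and the axis is cut at 3 on either side. The curves cross 0 close together, with medians of 1.02 and 1.01, and the cluster curve is lower on the left, where 6 cluster assays and 89 others lie past the limit.

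The reference behind the ratios moved this picture. The panel's assays fall into an A and a B set, split by the block of the spot code; outside the controls, the last letter of the assay code gives the same set. The U6 spots of each set average 0 on the log2 scale, so the deposited ratios are relative to U6. Relative to the other 4 small RNA controls (snoRNA135, snoRNA202, U87 and Y1) each log2 ratio would be lower by 0.20 in the A set and by 0.12 in the B set, and the median of all miRNA assays would go from 0.01 to -0.15. On that scale 24 cluster assays were above 1 and 48 below, beside 211 and 355 of all miRNA assays. The cluster median on the log2 scale turned from 0.03 to -0.14. The members past 1.5-fold became 10 (13.9%) above and 13 (18.1%) below, beside 16.1% and 23.0% of the panel. None of the 17 members past the limit with U6 changed side. The human miR-485-5p assay no longer passed, and miR-377, miR-369-3p, miR-541, miR-540, miR-380-5p, the mouse miR-136 assay and the rat miR-666 assay newly lay past the lower limit.

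Assay sets differed as well. In the A set 5 of 47 cluster assays were past the limit above 1 and 5 below, beside 13.2% and 15.8% of the panel's A set. In the B set 6 of 25 were past it above 1 and 1 below, beside 24.8% and 17.9%. The plant miRNA ath-miR159a, a negative control with no mouse target, had a ratio at each of its 8 B spots, from 2.59 to 3.37 per the authors' deposited table, and at 2 of its 8 A spots, of 0.139 and 1.96. Cluster members of the B set above 1.5-fold (miR-673, miR-432, miR-370, miR-299, miR-770-5p and miR-485-5p) were thus read in a set where an assay without a target was listed near 3. Of these, miR-770-5p (1.97) and miR-485-5p (1.58) had ratios below every B spot of the plant assay. MiR-299 was the only 1 of the 7 B set members past the limit within the plant range. The mouse assays of miR-673, miR-432 and miR-370 lay above it. Of the 10 A set members past the limit, 6 lay between the A spots of the plant assay (miR-770-3p, miR-154, miR-329, miR-380-3p, miR-544 and the rat miR-409-5p assay). The part of signal without a target in the members' ratios was not tested in either set.

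**Figure D2:**
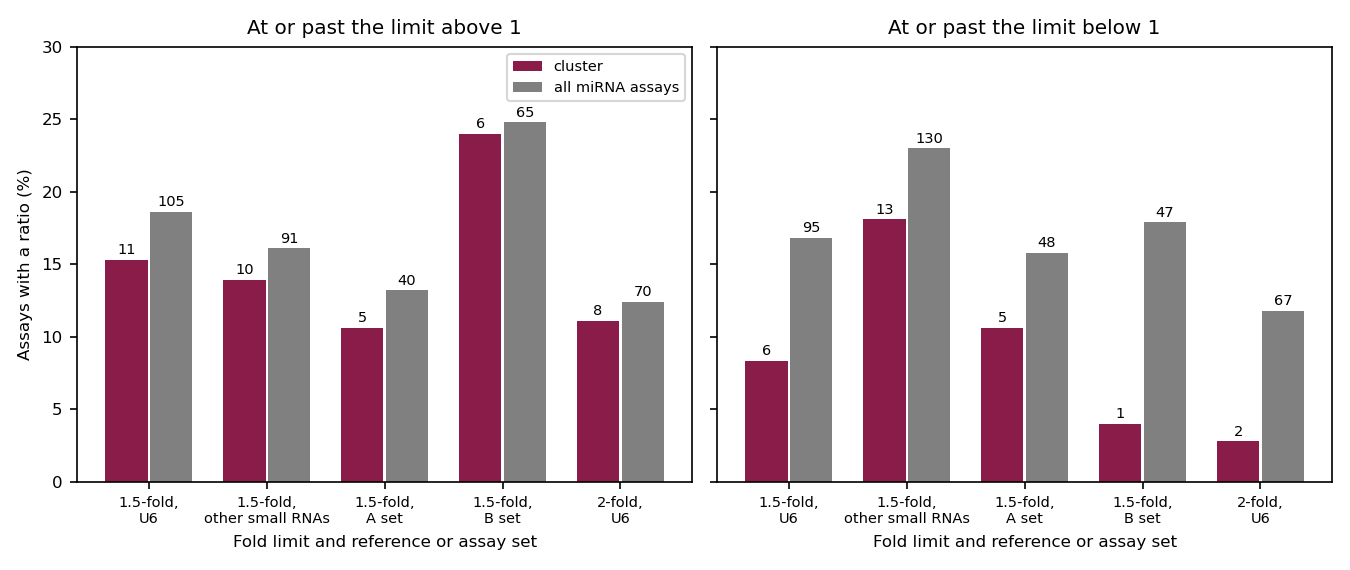
Percent of assays with a ratio that lie at or past the fold limit above 1 (left) and below 1 (right), for the cluster and for all miRNA assays; numbers over the bars are counts. Each pair of bars is 1 choice of limit, reference or assay set, and the cluster bar is the lower of the pair in each, from 24.0% against 24.8% above 1 in the B set to 4.0% against 17.9% below 1 in the same set.

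The counts were also taken along the cluster. In the stretch before miR-379 that is not antisense to Rtl1, 6 of 16 assays (37.5%) were at least 1.5-fold above 1 and 1 was as far below, against 18.6% and 16.8% of the panel. From miR-379 to miR-410 these numbers were 4 and 5 of 47, and among the miRNAs antisense to Rtl1 they were 1 and 0 of 9. The medians of the stretches lay closer together, at 0.971, 1.02 and 1.10 in the order given. The 6 assays come from 5 hairpins (miR-770, miR-673, miR-493, miR-665 and miR-370), so they are not independent, and the difference between the stretches was not tested.

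**Figure D3:**
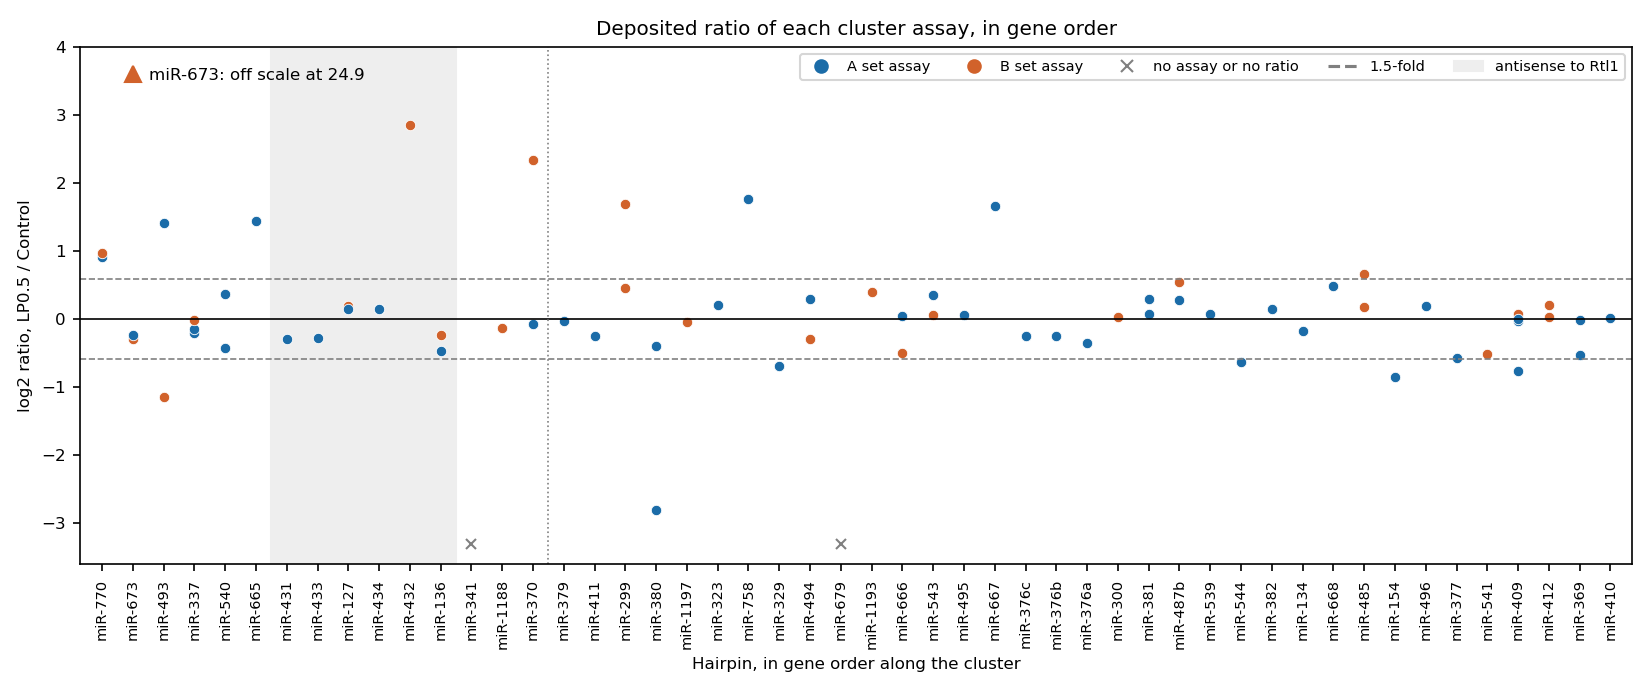
Log2 ratio (vertical axis) of every cluster assay with a ratio, placed by hairpin in gene order (horizontal axis) and coloured by assay set; grey shading marks the hairpins antisense to Rtl1, the dotted line the start of the miR-379 to miR-410 stretch, and crosses hairpins without an assay or a ratio. Most points lie between the dashed 1.5-fold lines; the mouse miR-673 assay is drawn as a triangle because it lies off the scale at 24.9, and miR-380-3p is the lowest point.

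MiR-770, which lies inside Meg3 and is first in the order, was the only hairpin with both named arms past the limit on the same side. MiR-770-3p had a ratio of 1.87 and miR-770-5p of 1.97 per the authors' deposited table. The arms were measured in different sets, A and B, and differed by 1.05-fold. They stayed past 1.5-fold relative to the other small RNA controls, at 1.64 and 1.81. MiR-770-3p lay between the A spots of the plant assay, and miR-770-5p lay below all of its B spots. The part of signal without a target in these ratios was not tested.

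MiR-673 shows how far assays of 1 hairpin could part. Its mouse assay stands at 3.13e+07 per the authors' deposited table, or 24.90 on the log2 scale. Its rat assay and the miR-673-3p assay have ratios of 0.846 and 0.820 per the authors' deposited table, both slightly below 1. The high ratio belongs to the mouse assay alone, and the amplification values behind it were not analysed here. Outside the cluster the panel's ratios ran from 0.000109 to 3.63e+07, so values this extreme stand elsewhere on the panel too. MiR-493 was split too: per the authors' deposited table the mouse assay, with no arm in its name, stands at 2.67 and the human miR-493-3p assay at 0.451. The names do not show whether both read the same arm.

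Around the next hairpins values were mixed. Each miR-337 assay was below 1 per the authors' deposited table, with 0.871 for miR-337-3p, 0.905 for miR-337-5p and 0.991 for the assay without an arm. MiR-540 had 0.747 without an arm and 1.29 for miR-540-5p per the authors' deposited table, on opposite sides of 1 and both within the limit. MiR-665, measured by 1 assay, had a ratio of 2.71 per the authors' deposited table. Of the members inside Rian, miR-1188 had a ratio of 0.914 per the authors' deposited table. MiR-370, known for acting on the fatty acid oxidation gene Cpt1a in liver cells, had a ratio of 5.06 by its mouse assay and of 0.951 by its human assay per the authors' deposited table. These 2 assays lie in different sets (B and A) and 5.32-fold apart, so 1 hairpin name covers both a high ratio and a ratio near 1.

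The miRNAs antisense to Rtl1 are fully complementary to its messenger RNA, and miR-127 and miR-136 among them are known to repress it. The group stayed near 1 except for miR-432. MiR-127 had a ratio of 1.10 and miR-127-5p of 1.15 per the authors' deposited table. Both arms of miR-434 had ratios of 1.11 per the authors' deposited table and differed by a fold of 1.00. MiR-136 had a ratio of 0.724 by the mouse and 0.850 by the human assay per the authors' deposited table, both below 1. MiR-431 and miR-433 had ratios of 0.817 and 0.829 per the authors' deposited table, while miR-433-5p had no ratio. MiR-432, reported with miR-376a, from work on human islets, to target genes of beta cell death, had a ratio of 7.25 per the authors' deposited table, the highest ratio of the cluster apart from the mouse miR-673 assay. It has 1 assay, in the B set, so nothing on the panel repeats it.

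From miR-379 to miR-410 the members are known chiefly from neurons, where the transcription factor Mef2 switches the stretch on. MiR-758, which is known to act on the cholesterol exporter Abca1, had a ratio of 3.40 by its human assay per the authors' deposited table, while its mouse assay had no ratio. MiR-667 had a ratio of 3.16 per the authors' deposited table. MiR-299 had a ratio of 3.25 and miR-299-5p of 1.37 per the authors' deposited table, both above 1 and 2.37-fold apart in the B set. The miR-299 ratio lies inside the range of the plant assay in that set. MiR-485-5p had a ratio of 1.58 and miR-485-3p of 1.14 per the authors' deposited table, again on the same side.

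Below 1 in this stretch, miR-380-3p was the farthest, at 0.143 per the authors' deposited table, where miR-380-5p stands at 0.761. Both arms were below 1 in the A set, 5.33-fold apart, the widest gap between named arms of 1 hairpin. MiR-154 had a ratio of 0.556, miR-329 of 0.622 and miR-544 of 0.647 per the authors' deposited table, each by 1 A set assay. The rat miR-409-5p assay had a ratio of 0.592 and the human assay of 1.00 per the authors' deposited table, a 1.70-fold gap between assays of the same name. The miR-409-3p assays stood at 0.984 and 1.05 per the authors' deposited table, so 3 of the 4 miR-409 assays lay close to 1.

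The members that passed the 1.5-fold limit by the least were miR-485-5p at 1.58 and miR-544 at 0.647 per the authors' deposited table. Those that missed it by the least were the mouse miR-487b assay at 1.45 and miR-668 at 1.40 above 1, and the human miR-377 assay at 0.676 and miR-369-3p at 0.693 below 1, all from the authors' deposited table. Steps this small separate members on opposite sides of the limit, so the counts depend on where it is drawn.

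MiR-410, reported to promote insulin secretion in a beta cell line, had a ratio of 1.01 per the authors' deposited table. The miR-376 paralogs had ratios of 0.783 for miR-376a, 0.844 for miR-376b and 0.841 for miR-376c per the authors' deposited table. All 3 were below 1 and within the limit, and lay between 0.683 and 0.736 relative to the other small RNA controls. MiR-134, which restrains dendritic spine growth through Limk1, had a ratio of 0.885 per the authors' deposited table. MiR-495 and miR-323-3p had ratios of 1.04 and 1.16 per the authors' deposited table. MiR-494 had a ratio of 0.815 by the mouse and 1.23 by the human assay per the authors' deposited table, on opposite sides of 1 and in different sets.

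The other members of the stretch complete this range. Per the authors' deposited table, miR-300 was at 1.02, miR-539 at 1.06, miR-382 at 1.11 and miR-496 at 1.14, all slightly above 1. Below 1, miR-541 and miR-369-5p had ratios of 0.702 and 0.993 in that table. Pairs of assays had ratios of 1.23 and 1.05 for miR-381, 1.16 and 1.02 for miR-412, 1.22 and 1.45 for miR-487b, 1.28 and 1.04 for miR-543, and 1.03 and 0.710 for miR-666 per the authors' deposited table. The assays of miR-666 thus stood on opposite sides of 1, and those of the other 4 on the same side. MiR-679, the only hairpin with an assay but no ratio, joins miR-666-3p, miR-433-5p, the mouse miR-758 assay and the rat assays of miR-377 and miR-543 as the 6 member assays without a ratio. What an absent ratio means is not given in the sources used here.

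Repeated assays give a view of how far ratios listed under the same miRNA name can part. Apart from those of miR-409, the paired names in the cluster leave the arm out and differ in species. They do not show whether both assays of a pair read the same mature miRNA. The cluster has 11 pairs of assays with the same miRNA name, whose ratios differed by a median of 1.22-fold, 4 pairs by at least 1.5-fold and 2 (miR-370 and miR-673) by more than 2-fold. For the other 27 such pairs of the panel the median was 1.31-fold, with 11 at least 1.5-fold and 7 at least 2-fold apart. In the cluster 5 of the 11 pairs lay on the same side of 1, against 17 of the other 27. This difference was not tested. Among 10 pairings of named 3p and 5p arms of 1 hairpin, 4 of them from miR-409, the median gap was 1.22-fold and 8 were on the same side of 1. Of the 20 hairpins with at least 2 ratios, 9 had every assay above 1, 4 had every assay below 1 and 7 had assays on both sides.

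**Figure D4:**
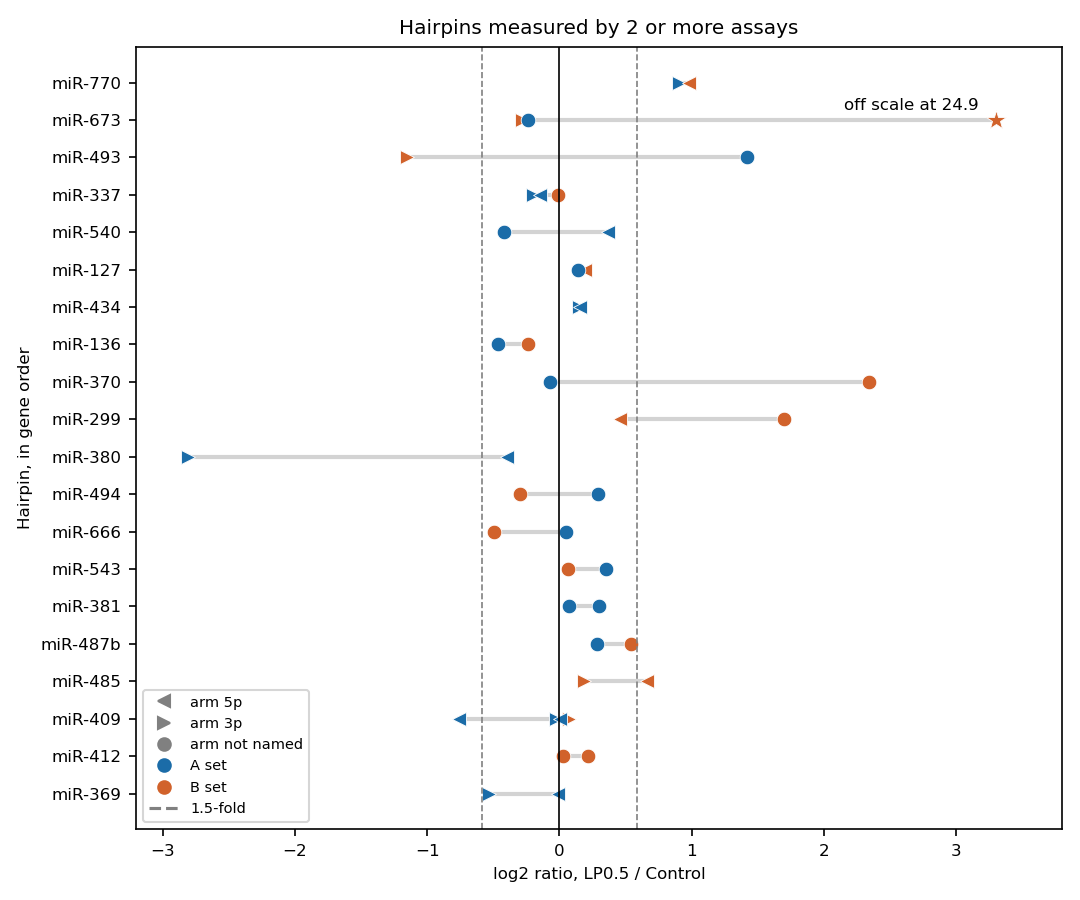
Log2 ratio (horizontal axis) of each assay of the 20 hairpins with 2 or more ratios (vertical axis, in gene order); triangles pointing left and right are 5p and 3p arms, circles assays without an arm in the name, colour the assay set, and dashed lines 1.5-fold. The miR-770 arms lie together past the upper line, while the assays of miR-673 (star, off scale at 24.9), miR-493, miR-370 and miR-380 lie far apart.

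Starred strands of member hairpins, whose names mark them as the minor strands, were outside the membership rule. Of 12 such assays, all in the B set, 11 had a ratio, 2 above 1 and 9 below, with a median ratio of 0.920, beside 1.02 for the 95 starred strands of the panel with a ratio. Of the panel's starred strands 50 were above 1 and 45 below. With the other small RNA controls as reference 1 starred strand of the cluster was above 1 and 10 below, beside 41 and 54 on the panel. MiR-376c# had a ratio of 0.00663 per the authors' deposited table, where the main miR-376c strand stands at 0.841. The mouse and human assays of miR-136# had ratios of 0.795 and 0.744 per the authors' deposited table, below 1 like both assays of the main strand. MiR-376b# had a ratio of 0.688 and the miR-376a# assays had ratios of 0.920 and 0.970 per the authors' deposited table. Starred and main strands were compared in the cluster alone, with no share for the panel. The miR-136# assays were set against the same main assays, as were the miR-376a# assays, so the ratios are not independent. Of the 11 starred ratios 9 lay on the same side of 1 as every assay of the main strand and 2 on the opposite side, against 10 and 1 with the other small RNA controls as reference. The 2 were miR-300#, at 0.715 where miR-300 was at 1.02, and miR-411#, at 1.13 where miR-411 was at 0.845, per the authors' deposited table. From a further list of 13 hairpins of the locus, 3 were on the panel with 4 assays, and the only ratio was that of miR-1906, from the Meg3 region, at 1.60 per the authors' deposited table.

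Beside another imprinted miRNA cluster, in an intron of Sfmbt2, the Dlk1-Meg3 members lay closer to 1. An assay named miR-466b-3-3p, at -0.089 on the log2 scale, was left out of the counts for the Sfmbt2 cluster. The other 29 unstarred assays of that cluster (names miR-297, miR-466, miR-467 and miR-669) had 21 ratios, with a median of 1.32. At least 1.5-fold above 1 were 8 (38.1%) and as far below 3 (14.3%), against 18.6% and 16.8% of the panel. The shares within the limits were 47.6% there, 76.4% in the Dlk1-Meg3 cluster and 64.7% on the panel. Most of the Sfmbt2 ratios came from the B set, against 25 of the 72 Dlk1-Meg3 ratios. On the whole panel 57.3% of the B set and 71.1% of the A set lay within the limits. For the Dlk1-Meg3 cluster these shares were 72.0% in the B set and 78.7% in the A set. The Sfmbt2 shares were not taken by set, so the part of the sets in the difference between the clusters was not tested.

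Markers of the cells that an islet preparation can hold were listed as follows. The islet markers miR-375 and miR-7 stood at 1.17 and 0.918 per the authors' deposited table. Assays of 3 acinar miRNAs ranged from 0.726 to 1.83, 4 mesenchymal assays from 0.190 to 2.66, 5 blood cell assays from 0.305 to 1.24, and the neural miR-9 and miR-124a stood at 0.558 and 1.27, all per the authors' deposited table, with miR-126 of endothelium at 0.975. Above 1 were 1 of 2 islet, 1 of 4 acinar, 2 of 4 mesenchymal, 3 of 5 blood cell and 1 of 2 neural assays. Left out of these lists were miR-7b and the human miR-199a assay without an arm in its name. Their log2 ratios were -0.93 and -1.31, both past the lower limit. Ratios are not levels, so how many cells of each type were present cannot be read from them. The part of cell content in the members' ratios was not tested.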

How the data were processed

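The authors deposited 1 linear ratio (fold) for each assay, which per the file headers sets low-protein over control. The submitters' processing notes name limma. Not given in the sources used here are its version and role, the normalization and any detection limit. Assay codes and miRNA names for each spot came from the other deposited file. Its 12 columns of per-sample values carry names that match no sample label, so they were used in no step. The planned limma fit was therefore not run, nor was any fit by replicate pairs or filter on the values. The mean log2 ratio of U6 was found to be 0 in each assay set from the values.

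The tables were joined by spot and names compared without species prefix and arm. Ratios were converted to log2; counts used a 1.5-fold limit, chosen, like the members and lists, with earlier results of these data known. Every member assay could be named in the text. Mature sequences and gene order came from RefSeq tables of GRCm38.p6, and the files name no genome build. Alternatives covered the reference, assay set, fold limit, repeated assays, species, starred strands and extreme ratios. The counting steps were tested on simulated data. Python 3.11.15, numpy 2.4.6, pandas 2.3.3 and matplotlib 3.10.9 were used.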

Additional observations from a re-analysis of the deposited data

How the results depend on the processing

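Of the 11 cluster assays at least 1.5-fold above 1 and the 6 as far below, the first count ranged from 8 to 11 and the second from 5 to 7 when repeated assays were averaged, starred strands were added, assays beyond 4-fold were left out or each set was divided by its median. With the snoRNA135, snoRNA202, U87 and Y1 reference the lower count was 13, with or without the 1 outlying U87 spot, a setting added after seeing the data; the upper count was 10 in both. Sets taken alone hold fewer assays by construction and gave 5 above and 5 below (A), and 6 above and 1 below (B). Assays named for mouse gave 9 above and 3 below, and a 2-fold limit 8 and 2. The cluster median log2 ratio, 0.03, was -0.14 with the other controls (-0.18 without that U87 spot), -0.0099 in the A set and -0.0099 with starred strands, 0.0697 in the B set, 0.0409 for mouse assays, 0.0181 with set medians, 0.023 with averaged assays and 0.0197 without assays beyond 4-fold; 1 ratio per assay gives no replicate spread for these shifts. Of the 72 single ratios, 64 stayed on their side of the limit with the other controls, 7 newly passed it and 1 no longer did. No paired analysis was possible because the 12 columns of per-sample values could not be tied to samples by name; leaving out replicates was not run for the same reason.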
